A study of Saccharomyces cerevisiae with 6 samples.

Results

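The passage of ccr4Δ pbp1Δ yeast into stationary phase was examined on a pair of arrays of a 6-array set, 1 from cells in stationary phase and 1 from cells in log phase. The strain lacks CCR4, which encodes the main cytoplasmic deadenylase subunit of the Ccr4-Not complex, and PBP1, which encodes a protein that binds the poly(A)-binding protein. The other 4 arrays hold ccr4Δ cells and wild-type cells in the same pair of phases, so the CCR4 deletion is shared with ccr4Δ and the PBP1 deletion is carried by ccr4Δ pbp1Δ alone. All strains are described as W303 derivatives and were grown in YPD, a rich medium with glucose, at 28°C, and 100 ng of total RNA was labelled with Cy3 for each 1-colour Agilent yeast array. The study lists its wild type as MATα and its ccr4Δ strain as MATa, and the mating type of ccr4Δ pbp1Δ was not given in the sources used here. The labels do not say how long the cells had been in stationary phase, nor whether both phases were sampled from 1 culture.

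Yeast growing on glucose makes its energy by fermentation and keeps the genes for respiration and for other carbon sources repressed. As glucose runs out, the cells pass through the diauxic shift, turn to the ethanol and acetate they have made, and then stop dividing. During this time messages for ribosomes and for cell division are known to fall, and those for respiration, gluconeogenesis, reserve carbohydrates and stress protection are known to rise. Deadenylation by Ccr4 is the first step in the decay of many mRNAs, and Pbp1 is known in yeast as a regulator of poly(A) tail length.

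Of 6225 systematic names on the array, 5836 were well above background on both ccr4Δ pbp1Δ arrays and are called measured here. Another 43 were well above background in stationary phase only, 109 in log phase only and 237 on neither array. Signals are given on a scale on which the 75th percentile of each array is 100, and a shift is the log2 ratio of stationary phase over log phase. With 1 array for each condition no difference between the arrays could be tested, so the spread given is that between the 2 spots of a probe, which had an SD of 0.08 log2 units on the stationary phase array and 0.09 on the log phase array. This spread is technical and says nothing of how cultures vary. The only test available was limma's additive fit of strain and phase over all 6 arrays, which leaves 2 residual degrees of freedom, and its p-values were adjusted by Benjamini-Hochberg. It tests the mean shift of the 3 strains, not that of ccr4Δ pbp1Δ, against the spread of the shift between the strains on these arrays. Nothing says that the arrays come from separate cultures, so its p-values do not measure how cultures vary. The ccr4Δ pbp1Δ arrays lay on 1 slide with both ccr4Δ arrays and the wild-type stationary phase array. The wild-type log phase array lay on another slide, so slide and phase cannot be told apart in the wild-type shift. Signals of different probes do not rank the abundance of different mRNAs, and total RNA per cell was not measured, so every shift is relative to the other mRNAs of the array.

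The deleted genes were checked first. The CCR4 probe gave 0.0854 in stationary phase and 0.0474 in log phase in ccr4Δ pbp1Δ and was not well above background on either array, against 18.3 and 24.7 in wild-type cells. PBP1 gave 0.129 and 0.0449 in ccr4Δ pbp1Δ and was again not well above background, whereas ccr4Δ cells gave 105 in stationary phase and 109 in log phase. Both labels were therefore matched by the probes. The mating-type genes placed ccr4Δ pbp1Δ with ccr4Δ. STE2, which encodes the α-factor receptor of a cells, gave 335 in log phase in ccr4Δ pbp1Δ, 336 in ccr4Δ and 2.72 in wild-type, while STE3, which encodes the a-factor receptor of α cells, gave 3.36, 3.37 and 285 in the same order. All 7 a-specific genes were at least 2-fold lower in stationary phase in ccr4Δ pbp1Δ, with a median shift of -2.20 and signals of 23.0 in stationary phase and 335 in log phase for STE2. In comparisons of these genes with wild-type cells, mating type and growth phase cannot be told apart.

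Entry into stationary phase was accompanied by a large change of the ccr4Δ pbp1Δ transcriptome. Of the 5836 measured genes, 1394 (23.9%) were at least 2-fold higher in stationary phase, 1168 (20.0%) were at least 2-fold lower, and 3274 (56.1%) stayed within 2-fold. The 4-fold limit was passed by 463 genes upward and 491 downward, and the 64-fold limit by 20 genes upward and by 1 gene downward. The median shift over all measured genes was 0.15, the quartiles were -0.74 and 0.96, and the extremes were 9.73 and -6.30. In the fit over 3 strains, 1470 of 5724 genes (25.7%) were called higher and 1293 (22.6%) lower in stationary phase at an adjusted p under 0.05. Among the genes measured on all 6 arrays, 1154 of the 1321 that were 2-fold higher in ccr4Δ pbp1Δ were among the genes called higher, and 1016 of the 1166 that were 2-fold lower were among those called lower. The same arrays enter both counts. The fit of ccr4Δ and wild-type alone shares no array with ccr4Δ pbp1Δ, and it called 752 genes higher and 696 lower. Of these, 701 and 644 were past 2-fold the same way in ccr4Δ pbp1Δ. Genes with no gene symbol in RefSeq made up 16.8% of the 463 genes at least 4-fold higher and 5.70% of the 491 at least 4-fold lower, against 11.8% of all measured genes.

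**Figure D1:**
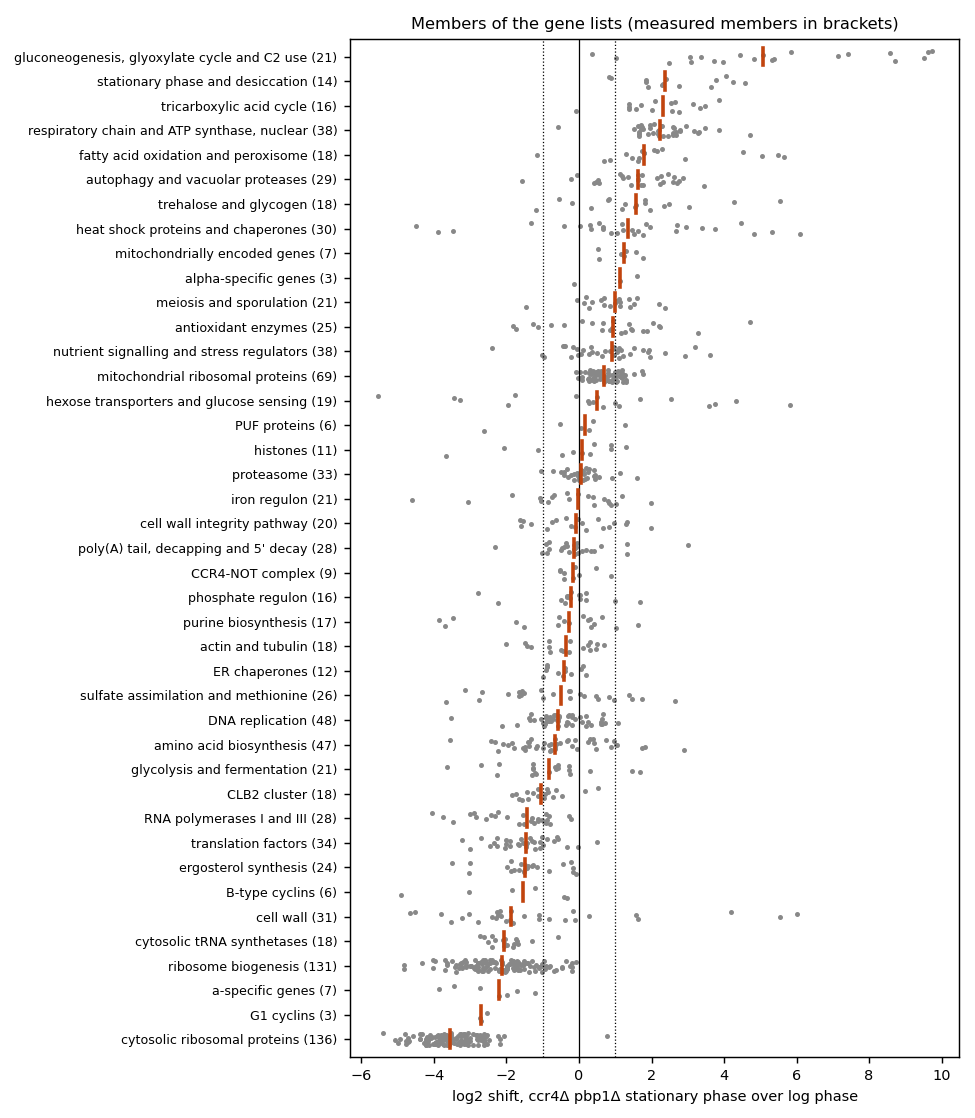
Shift of every measured member of 41 gene lists in ccr4Δ pbp1Δ, stationary phase over log phase, on a log2 axis. Grey points are genes, red bars are list medians and dotted lines mark the 2-fold limits. The gluconeogenesis list had the highest median, 5.07, and the cytosolic ribosomal proteins the lowest, -3.57.

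The strongest rises were those of gluconeogenesis and of the use of acetate and ethanol. Of 21 genes on this list, all measured, 20 were at least 2-fold higher and none was lower, with a median shift of 5.07 against 0.15 over all measured genes. In the fit over 3 strains, 18 of the 20 tested were called higher. SFC1, which encodes the mitochondrial carrier that exchanges succinate for fumarate, had the largest rise of all measured genes. Its signal was 1742 in stationary phase and 2.06 in log phase, a difference of 847-fold, and both spots gave a shift of at least 9.65. FBP1, encoding fructose-1,6-bisphosphatase, gave 2144 in stationary phase and 2.95 in log phase. PCK1, encoding phosphoenolpyruvate carboxykinase, gave 2485 and 5.90. These 2 enzymes carry the steps of gluconeogenesis that glycolysis cannot run backwards, and their adjusted p in limma's fit over 3 strains was 0.00042 and 7.1e-05.

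The glyoxylate cycle, which lets cells build sugars from acetate, moved with them. MLS1, encoding malate synthase, gave 960 in stationary phase and 1.21 in log phase, a shift of 9.63. ICL1, encoding isocitrate lyase, gave 2145 and 12.5, a shift of 7.42. The lactate and pyruvate carrier gene JEN1 gave 1526 in stationary phase and 10.7 in log phase. IDP2, the cytosolic NADP-dependent isocitrate dehydrogenase gene, gave 1935 and 5.07. The list also holds genes of transcription factors that activate this programme. Their shifts were 4.44 for CAT8, 5.37 for SIP4 and 3.06 for ADR1. At the low end of the list stood the aldehyde dehydrogenase genes, with a shift of 1.03 for ALD6 and of 0.35 for ALD4, which alone missed the 2-fold limit. ALD4 gave 183 in stationary phase and 143 in log phase in ccr4Δ pbp1Δ, and 615 and 41.9 in wild-type cells.

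Outside this list, the 12 largest rises among genes with a symbol held RGI2, REG2, AGX1, PEX18 and MOH1. RGI2, a gene known to be induced in respiratory growth, gave 226 in stationary phase and 0.852 in log phase. REG2, encoding a regulatory subunit of the Glc7 phosphatase, gave 332 and 3.71. AGX1, which encodes the enzyme that makes glycine from glyoxylate, gave 837 and 10.05. The signals of PEX18, encoding a peroxisomal import factor, were 71.0 and 0.912, and those of MOH1, known as a gene of stationary phase survival, were 162 and 2.16. All 12 of these genes were at least 74.7-fold higher in stationary phase.

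**Figure D2:**
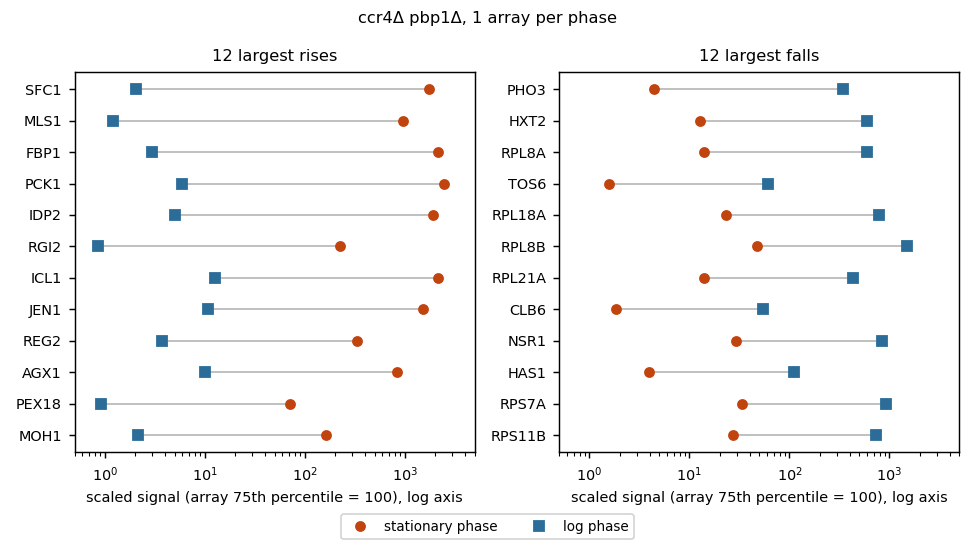
Scaled signal of the 12 genes with the largest rises and the 12 with the largest falls in ccr4Δ pbp1Δ, 1 array per phase, on a log axis. Circles are stationary phase and squares log phase. SFC1 gave 1742 in stationary phase and 2.06 in log phase, and PHO3 gave 4.38 and 344.

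Mitochondrial energy metabolism rose almost as one block. Of 38 nuclear genes of the respiratory chain and ATP synthase, 37 were at least 2-fold higher, the median shift was 2.24, and 37 were called higher in the fit over 3 strains. NDE2, encoding an external NADH dehydrogenase, gave 34.2 in stationary phase and 1.30 in log phase. NDI1, encoding the internal enzyme, gave 508 and 52.7. The exception was COX5B, the isoform of cytochrome oxidase subunit V known for low oxygen, with 40.4 in stationary phase and 60.2 in log phase, while its aerobic counterpart COX5A gave 2005 and 333. The mitochondrially encoded genes had a median shift of 1.24, against 1.44 in ccr4Δ and 1.96 in wild-type. Of the 7 measured members 5 passed 2-fold, among them COX2 with 83.8 in stationary phase and 24.8 in log phase. ATP6 was not well above background on either array and was left out.

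The tricarboxylic acid cycle showed the same direction. There 15 of 16 genes were at least 2-fold higher with a median of 2.32, and the same number was called higher in the fit over 3 strains. SDH2, which encodes the iron-sulfur subunit of succinate dehydrogenase, gave 1769 in stationary phase and 122 in log phase, and CIT1, encoding mitochondrial citrate synthase, gave 1523 and 245. LSC1, the gene of a succinyl-CoA ligase subunit, gave 167 and 177 and did not move past the limit, although LSC2, the gene of its partner subunit, had a shift of 2.10. Genes of fatty acid oxidation and the peroxisome had a median of 1.79 with 15 of 18 at least 2-fold higher. POT1, encoding peroxisomal thiolase, gave 108 in stationary phase and 2.14 in log phase, and CTA1, encoding peroxisomal catalase, gave 257 and 5.72. ANT1, the peroxisomal ATP carrier gene, was the only member past 2-fold downward, with 28.6 and 63.5.

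Messages for cytosolic ribosomal proteins fell together. Of 136 measured genes, 135 were at least 2-fold lower, against 20.0% of all measured genes, and 135 were called lower in the fit over 3 strains. The median shift was -3.57, and apart from RPL15B every member lay between -5.41 and -2.07. RPL8A, at the low end, gave 14.1 in stationary phase and 600 in log phase. RPL3 gave 68.5 and 1267. RPL15B alone had a positive shift, with 147 in stationary phase and 86.3 in log phase, whereas its duplicate RPL15A gave 125 and 1444. Probe sequences were not examined, so hybridization between near-identical duplicate genes such as RPL8A and RPL8B was not checked.

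The machinery that builds ribosomes fell with them. Of 131 ribosome biogenesis genes, 116 were at least 2-fold lower and none was higher, with a median of -2.13 and 109 called lower in the fit over 3 strains. NSR1, encoding a nucleolar protein of pre-rRNA processing, gave 29.5 in stationary phase and 839 in log phase. HAS1, encoding a nucleolar RNA helicase, gave 3.93 and 111. Every measured member had a negative shift, down to -0.09 for FCF2. Of 28 genes of RNA polymerases I and III, which transcribe the ribosomal and transfer RNAs, 20 were at least 2-fold lower, and the largest fall was that of RPA49 with 6.74 in stationary phase and 112 in log phase.

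Other genes of cytosolic translation were mostly lower. Among 18 cytosolic tRNA synthetase genes, 17 were at least 2-fold lower with a median of -2.05, and DPS1 at -0.58 was the exception. Translation factors had a median of -1.46 with 26 of 34 at least 2-fold lower. YEF3, encoding the fungal elongation factor eEF3, gave 155 in stationary phase and 1443 in log phase, while CAM1, at 0.49, was the only member with a positive shift. Genes of mitochondrial ribosomal proteins showed no such fall. Of 69 measured genes 20 (29.0%) were at least 2-fold higher, against 23.9% of all measured genes, and none was lower. Their median shift was 0.70 against 0.15 over all measured genes, 67 had a positive shift, and the highest value was 1.76 for MRPL24. The fit over 3 strains called 10 of the 69 (14.5%) higher, against 25.7% of all genes tested.

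**Figure D3:**
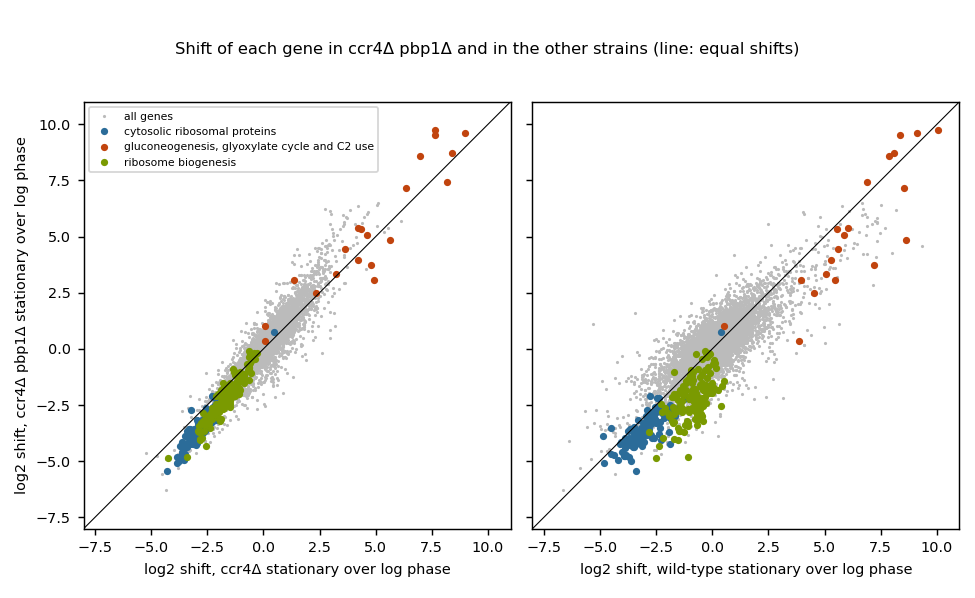
Shift of each of 5724 genes in ccr4Δ pbp1Δ (vertical axis, log2) against its shift in ccr4Δ (left) and in wild-type (right), with 1 array per strain and phase. Coloured points mark 3 gene lists and the line marks equal shifts. Pearson's r across genes was 0.94 with ccr4Δ and 0.82 with wild-type.

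The shift of ccr4Δ pbp1Δ was set beside those of ccr4Δ and wild-type to show where it stood apart. Across the 5724 genes measured on all arrays, Pearson's r was 0.94 with ccr4Δ and 0.82 with wild-type, and Spearman's rho was 0.92 and 0.78. These are descriptions across genes, which are not independent replicates. The SD of the shifts was 1.55 in ccr4Δ pbp1Δ, 1.23 in ccr4Δ and 1.61 in wild-type. Of the 1321 genes past the upper 2-fold limit in ccr4Δ pbp1Δ, 848 passed the limit in ccr4Δ too, which is 64.2% of the ccr4Δ pbp1Δ list and 87.6% of the ccr4Δ list. With wild-type 882 were shared, 66.8% of the ccr4Δ pbp1Δ list and 67.6% of the wild-type list. Of the 1166 lower genes, 865 were shared with ccr4Δ (74.2% and 90.2%) and 746 with wild-type (64.0% and 63.5%). The limit was passed upward in all 3 strains by 657 genes and downward by 601, and in ccr4Δ pbp1Δ alone by 248 and 156 genes. None of the differences between strains could be tested.

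By gene list, ccr4Δ pbp1Δ lay beyond both other strains for the ribosome and its assembly, and for several other lists. A shift below both other strains was seen in 124 of 136 cytosolic ribosomal protein genes and in 115 of 131 ribosome biogenesis genes, against 29.6% of the 5724 genes. The medians were -3.57 in ccr4Δ pbp1Δ, -2.82 in ccr4Δ and -2.96 in wild-type for the ribosomal proteins, and -2.13, -1.72 and -0.81 for ribosome biogenesis. HAS1 had a shift of -4.82 in ccr4Δ pbp1Δ, -3.38 in ccr4Δ and -1.08 in wild-type. Mitochondrial ribosomal protein genes lay above both strains in 60 of 69 cases, against 33.6% of all genes, with medians of 0.70 in ccr4Δ pbp1Δ, 0.41 in ccr4Δ and -0.19 in wild-type. Above both strains also lay 29 of 38 nuclear respiratory chain genes, and below both 14 of 18 tRNA synthetase genes. Of 7 mitochondrially encoded genes 5 lay below both and none above. Of 20 gluconeogenesis genes only 5 lay above both and 4 below. Shifts over all genes were wider in ccr4Δ pbp1Δ (SD 1.55) than in ccr4Δ (1.23), and the part of this width in these counts was not tested. Ergosterol synthesis lay low, with 18 of 24 genes at least 2-fold lower and a median of -1.48 in ccr4Δ pbp1Δ, -0.84 in ccr4Δ and -0.68 in wild-type. ERG25, encoding the sterol C-4 methyl oxidase, gave 77.7 in stationary phase and 875 in log phase in ccr4Δ pbp1Δ, against 612 and 1394 in wild-type cells.

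For the reserve carbohydrate and stationary phase genes ccr4Δ pbp1Δ lay between the other strains. The trehalose and glycogen list had medians of 1.56 in ccr4Δ pbp1Δ, 0.80 in ccr4Δ and 2.67 in wild-type, and in ccr4Δ pbp1Δ 12 of its 18 genes passed the upper 2-fold limit. IGD1, encoding an inhibitor of glycogen debranching, gave 715 in stationary phase and 15.3 in log phase. GAC1, encoding a phosphatase subunit that promotes glycogen synthesis, gave 80.8 and 4.16. TPS1 and UGP1, which encode trehalose phosphate synthase and UDP-glucose pyrophosphorylase, had shifts of -0.21 and -0.54, and TPS3 was the only member past 2-fold downward, at -1.19. In the list of stationary phase and desiccation genes all 14 measured members had positive shifts and 12 passed 2-fold, with medians of 2.36 in ccr4Δ pbp1Δ over those 14 genes and of 1.18 in ccr4Δ and 3.28 in wild-type over the 13 measured on all arrays. SPG4, named for stationary phase, gave 84.7 in stationary phase and 3.57 in log phase in ccr4Δ pbp1Δ, and 507 and 0.780 in wild-type. HSP12, encoding a small membrane-protecting heat shock protein, gave 343 and 25.2 in ccr4Δ pbp1Δ, 304 and 120 in ccr4Δ, and 272 and 8.67 in wild-type.

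Heat shock protein genes were mostly higher, and a few were lower. Of 30 genes 18 were at least 2-fold higher, against 23.9% of all measured genes. Only 4 (13.3%) were at least 2-fold lower, a share below the 20.0% of all measured genes. The fit over 3 strains called 11 of 29 (37.9%) higher and 5 (17.2%) lower, against 25.7% and 22.6% of all genes tested. Medians over the 29 genes measured on all arrays were 1.22 in ccr4Δ pbp1Δ, 0.82 in ccr4Δ and -0.40 in wild-type. The plasma membrane protein gene HSP30 gave 2775 in stationary phase and 40.5 in log phase, and the small heat shock protein gene HSP26 gave 1802 and 44.8. HSP78, encoding a mitochondrial disaggregase, gave 629 and 60.3. The 4 genes past 2-fold downward were SSB1, SSB2, SSA2 and YDJ1, of which SSB1 and SSB2 encode chaperones bound to ribosomes. SSB1 gave 59.3 in stationary phase and 1330 in log phase. SIS1, encoding a cytosolic co-chaperone, was past 2-fold upward in ccr4Δ pbp1Δ, with 766 and 329, and past 2-fold downward in wild-type, with 249 and 540. ER chaperones had no member past 2-fold and a median of -0.42. Of 33 proteasome genes 30 (90.9%) stayed within 2-fold, against 56.1% of all measured genes. RPN4, the gene of their transcriptional activator, gave 401 in stationary phase and 132 in log phase.

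Other protective and recycling genes were higher. In the autophagy and vacuolar protease list 22 of 29 measured genes were at least 2-fold higher, with a median of 1.64. ATG8, encoding the ubiquitin-like protein of the autophagosome, gave 406 in stationary phase and 37.1 in log phase, and CPS1, encoding a vacuolar carboxypeptidase, was the exception with a shift of -1.58. Among 25 antioxidant enzyme genes 12 (48.0%) were at least 2-fold higher and 4 (16.0%) lower, against 23.9% and 20.0% of all measured genes. GPX1, encoding a phospholipid hydroperoxide glutathione peroxidase, gave 63.4 in stationary phase and 2.43 in log phase, and the mitochondrial peroxiredoxin gene PRX1 gave 1005 and 104. Lower members were GSH2, AHP1, TRX1 and TRR1, with shifts from -1.81 to -1.13, among which TRX1 and TRR1 encode cytosolic thioredoxin and its reductase.

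Hexose transporter and glucose sensing genes moved in both directions. Of 19 measured, 8 (42.1%) were at least 2-fold higher and 5 (26.3%) lower, against 23.9% and 20.0% of all measured genes. The other 6 stayed within 2-fold, and the median shift of 0.49 was -0.15 with spike-in scaling. HXT2, encoding a glucose transporter of intermediate to high affinity, was the gene with the largest fall but 1, at 12.8 in stationary phase and 602 in log phase. HXT3 and HXT1, the low-affinity transporter genes, gave 42.6 and 15.2 in stationary phase and 463 and 147 in log phase. HXT5, the transporter gene linked to slow growth, gave 319 in stationary phase and 5.68 in log phase. HXT13 was well above background in stationary phase only and was at least 17.2-fold higher. The high-affinity transporter gene HXT7 gave 692 and 582 in ccr4Δ pbp1Δ, 582 and 1029 in ccr4Δ, and 2314 and 71.3 in wild-type, so its small shift in ccr4Δ pbp1Δ came with a log phase signal well above that of wild-type cells. HXK1, a hexokinase gene repressed by glucose, showed the same in log phase, with 341 in ccr4Δ pbp1Δ, 609 in ccr4Δ and 57.8 in wild-type. The culture density at sampling was not given for these arrays, and its part in these values was not tested.

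Glycolysis was lower in part. Of 21 genes 10 (47.6%) were at least 2-fold lower, against 20.0% of all measured genes, and 2 were higher. The median was -0.82 in ccr4Δ pbp1Δ, -1.11 in ccr4Δ and -1.63 in wild-type, and 14 were called lower in the fit over 3 strains. HXK2, the main hexokinase gene in glucose, gave 118 in stationary phase and 1476 in log phase. GLK1, encoding glucokinase, was higher, with 586 and 182. PGK1, encoding phosphoglycerate kinase and often used as a reference, gave 1186 in stationary phase and 1767 in log phase in ccr4Δ pbp1Δ. In ccr4Δ it gave 525 and 1890, and in wild-type 128 and 2436. The PGK1 shift of -0.58 in ccr4Δ pbp1Δ became 0 with quantile normalization and -0.02 in the authors' processed values. ACT1, the actin gene, gave 894 and 1214 in ccr4Δ pbp1Δ, 777 and 1254 in ccr4Δ, and 311 and 1589 in wild-type. Its ccr4Δ pbp1Δ shift of -0.44 became 0.26 with quantile normalization and 0.21 in the authors' processed values. Of 18 actin and tubulin genes, 14 (77.8%) stayed within 2-fold, against 56.1% of all measured genes.

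**Figure D4:**
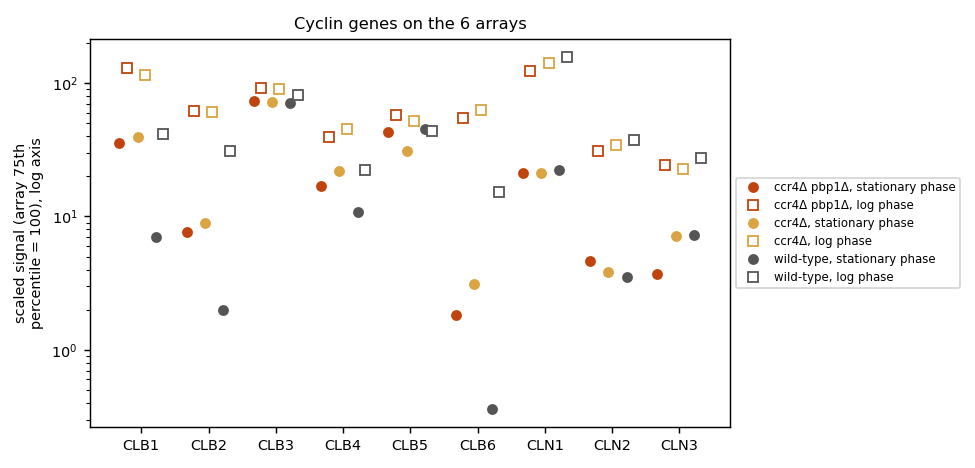
Scaled signal of the 6 B-type and 3 G1 cyclin genes on the 6 arrays, on a log axis, filled for stationary phase and open for log phase. In ccr4Δ pbp1Δ CLB6 gave 1.82 in stationary phase and 54.6 in log phase, while CLB3 gave 73.2 and 91.7.

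Cyclin messages were lower in stationary phase, to very different degrees. CLB6, which encodes a B-type cyclin of S phase, gave 1.82 in stationary phase and 54.6 in log phase, a 30.0-fold difference and 1 of the 12 largest falls. CLB2, the main mitotic cyclin gene, gave 7.59 and 61.8. CLB1, its close relative, gave 35.8 and 129, and CLB4 gave 16.9 and 39.3. CLB5 and CLB3 stayed within 2-fold, with shifts of -0.42 and -0.32. The related cyclins CLB5 and CLB6, both of S phase, thus had shifts of very different size. The spots of CLB6 gave shifts of -4.94 and -4.87. In ccr4Δ the shift of CLB6 was -4.32 and in wild-type -5.40, and its log phase signal of 54.6 in ccr4Δ pbp1Δ compared with 62.3 in ccr4Δ and 15.1 in wild-type. In the fit over 3 strains CLB1, CLB2, CLB4 and CLB6 were called lower.

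The G1 cyclins were lower by similar amounts. CLN1 gave 21.2 in stationary phase and 123 in log phase, CLN2 gave 4.65 and 31.0, and CLN3, the upstream G1 cyclin gene, gave 3.70 and 24.2. The CLN3 shift of -2.71 in ccr4Δ pbp1Δ lay below those in ccr4Δ, -1.67, and wild-type, -1.90. Of 18 genes of the CLB2 cluster, a set of genes expressed around mitosis, 9 were at least 2-fold lower and none was higher. CDC5, encoding the polo kinase, gave 16.8 in stationary phase and 60.3 in log phase. Of 48 DNA replication genes 39 (81.25%) stayed within 2-fold, against 56.1% of all measured genes. Only 8 (16.7%) were at least 2-fold lower, a share below the 20.0% of all measured genes, and 1 was higher. The fit over 3 strains called 14 (29.2%) lower, against 22.6% of all genes tested. RNR1, encoding the large subunit of ribonucleotide reductase, gave 32.0 and 370. Among 11 histone genes HTB2, HTA2 and HTB1 (27.3%) were past 2-fold downward, against 20.0% of all measured genes. Their shifts were -3.68, -2.07 and -1.12. CSE4, the gene of the centromeric variant, was past it upward at 1.31.

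The deleted genes belong to the machinery of mRNA decay and poly(A) tail control, most of whose other genes stayed within 2-fold. All 9 measured members of the Ccr4-Not list were within 2-fold, between -0.52 for CAF40 and 0.89 for CDC36, and POP2, which encodes the complex's other deadenylase, gave 38.2 in stationary phase and 37.8 in log phase. In the list of poly(A) tail, decapping and 5′ decay factors 23 of 28 measured genes (82.1%) were within 2-fold, against 56.1% of all measured genes, 3 were at least 2-fold higher and 2 were lower. The fit over 3 strains called 3 of the 28 higher and 5 lower. The largest fall was that of PAB1, which encodes the poly(A)-binding protein that Pbp1 binds, with 63.2 in stationary phase and 312 in log phase. EDC2, encoding an activator of decapping, gave 439 and 54.5 in ccr4Δ pbp1Δ, 265 and 73.2 in ccr4Δ, and 185 and 67.8 in wild-type. PBP4, encoding a partner of Pbp1, gave 128 in stationary phase and 51.7 in log phase. Among the genes of Puf proteins, which guide Ccr4-Not to target mRNAs, PUF3 had a shift of 1.27 and PUF6, whose product also acts in ribosome biogenesis, one of -2.61, and the other 4 were within 2-fold.

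In the list of nutrient and stress regulators 16 of 38 (42.1%) were at least 2-fold higher, against 23.9% of all measured genes, and 2 were lower. The fit over 3 strains called 20 (52.6%) higher, against 25.7% of all genes tested. USV1, a zinc finger regulator gene of growth on non-fermentable carbon, gave 194 in stationary phase and 15.9 in log phase. XBP1, encoding a repressor induced by stress and starvation, gave 65.8 and 7.15. GIS1 and HAP4, whose products act in stationary phase and in the activation of respiration, had shifts of 1.90 and 1.94. MSN4, encoding a stress activator, gave 37.2 and 48.5 in ccr4Δ pbp1Δ but 233 and 41.2 in wild-type. RAS1 was lower, with 15.7 in stationary phase and 82.3 in log phase.

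Cell wall genes were mostly lower, with 21 of 31 measured members at least 2-fold lower and a median of -1.87 in ccr4Δ pbp1Δ, -1.45 in ccr4Δ and -0.38 in wild-type. DSE2, a daughter cell gene of cell separation, gave 10.1 in stationary phase and 253 in log phase, and UTR2, encoding a chitin transglycosylase, gave 47.9 and 1099. CWP1, encoding a wall mannoprotein, gave 208 in stationary phase and 970 in log phase in ccr4Δ pbp1Δ, against 1845 and 502 in wild-type. SPI1, PIR3 and YGP1, wall protein genes known from stress and starvation, went the other way, with shifts of 6.02, 4.18 and 5.54. Of the cell wall integrity pathway 13 of 20 genes (65.0%) were within 2-fold, against 56.1% of all measured genes, 3 were at least 2-fold higher and 4 were lower. LRG1 encodes a GTPase-activating protein for Rho1 in that pathway. It gave 14.3 in stationary phase and 23.7 in log phase in ccr4Δ pbp1Δ, 16.7 and 25.5 in ccr4Δ, and 20.4 and 19.1 in wild-type.

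Biosynthetic lists held more genes past 2-fold downward than upward, where all measured genes had 20.0% and 23.9%. Of 47 amino acid biosynthesis genes 17 (36.2%) were at least 2-fold lower and 5 (10.6%) higher, from LYS9 at -3.56 to SER3 at 2.91. In the sulfate and methionine list 11 of 26 (42.3%) were at least 2-fold lower and 4 (15.4%) higher. Its medians were -0.50 in ccr4Δ pbp1Δ, 0.83 in ccr4Δ and -1.11 in wild-type. CYS3, encoding cystathionine gamma-lyase, gave 58.8 in stationary phase and 753 in log phase, and MET28, a regulator gene, had a shift of 2.65. In the purine list 5 of 17 genes (29.4%) were at least 2-fold lower and 2 (11.8%) higher, and GUA1, encoding GMP synthase, gave 33.9 and 492. The largest fall of all was that of PHO3, a constitutive acid phosphatase gene, with 4.38 in stationary phase and 344 in log phase. In the phosphate regulon 13 of 16 genes (81.25%) stayed within 2-fold, against 56.1% of all measured genes, 1 was higher and 2 were lower. FET3, the multicopper oxidase gene of high-affinity iron uptake, gave 10.6 and 258, and of 21 measured iron regulon genes 13 (61.9%) were within 2-fold, 3 were higher and 5 were lower. TOS6, encoding a cell wall protein, gave 1.57 in stationary phase and 61.6 in log phase.

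**Figure D5:**
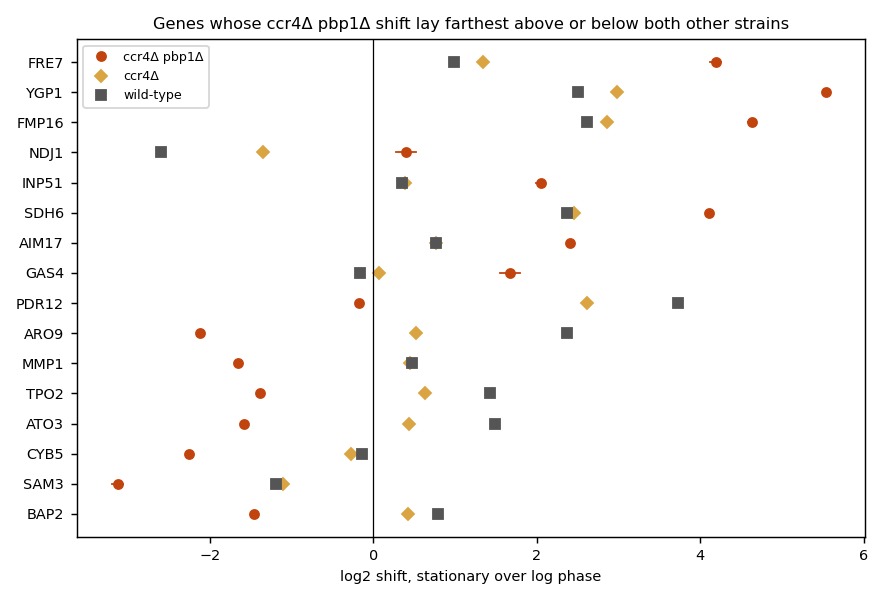
Shift, stationary over log phase on a log2 axis, of the 16 genes whose ccr4Δ pbp1Δ shift lay farthest above (upper 8) or below (lower 8) both other strains, with 1 array per strain and phase. The line through each ccr4Δ pbp1Δ point joins the values of the 2 spots. YGP1 was at 5.54 in ccr4Δ pbp1Δ, and PDR12 was at -0.18.

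Single genes were also ranked by how far their shift lay from both other strains. Of 5724 genes, 45 had a shift at least 1 log2 unit above that of both strains and 83 a shift at least 1 unit below. These genes are described because their shifts were extreme, so their values are given without a test. FRE7, encoding a putative metalloreductase, had the farthest shift above, with 221 in stationary phase and 12.1 in log phase in ccr4Δ pbp1Δ, 61.5 and 24.2 in ccr4Δ, and 17.4 and 8.77 in wild-type. Its shift was 4.19 in ccr4Δ pbp1Δ, 1.34 in ccr4Δ and 0.99 in wild-type. YGP1 gave 763 and 16.4 in ccr4Δ pbp1Δ, 534 and 67.9 in ccr4Δ, and 459 and 81.1 in wild-type, so the strains differed more in log phase than in stationary phase. FMP16 and SDH6, whose products are mitochondrial, had shifts of 4.64 and 4.10, against 2.86 and 2.46 in ccr4Δ and 2.62 and 2.37 in wild-type. The remaining 4 were INP51, AIM17, GAS4 and NDJ1, of which NDJ1 had a small shift of 0.40 in ccr4Δ pbp1Δ that was negative with quantile normalization, with spike-in scaling and in the authors' processed values.

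The 8 genes farthest below held several of uptake and efflux at the plasma membrane. PDR12, encoding an efflux pump for weak organic acids, gave 83.8 in stationary phase and 94.9 in log phase in ccr4Δ pbp1Δ, 652 and 106 in ccr4Δ, and 1296 and 98.1 in wild-type. Here the log phase arrays were alike and the stationary phase arrays differed. ARO9, encoding an aromatic aminotransferase, gave 34.0 and 149 in ccr4Δ pbp1Δ, 256 and 177 in ccr4Δ, and 317 and 61.1 in wild-type. BAP2, a branched-chain amino acid permease gene, gave 81.2 in stationary phase and 224 in log phase in ccr4Δ pbp1Δ, and 380 and 284 in ccr4Δ. The polyamine transporter gene TPO2 gave 50.2 and 131 in ccr4Δ pbp1Δ, and 291 and 188 in ccr4Δ. MMP1 and SAM3, encoding permeases for S-methylmethionine and S-adenosylmethionine, had shifts of -1.66 and -3.13 in ccr4Δ pbp1Δ, against 0.45 and -1.11 in ccr4Δ. ATO3, encoding a putative ammonium exporter, and CYB5, encoding cytochrome b5, had shifts of -1.58 and -2.26.

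Genes well above background on 1 of the arrays have a bound, or only a ratio where the dim signal lay above the detection floor. CSM4, a meiotic gene, was at least 54.1-fold higher in stationary phase and UTR5 at least 12.8-fold. CDA2, encoding a chitin deacetylase of sporulation, and NRS1 had ratios of 11.7-fold and 9.18-fold, which are not bounds. Their lower spots gave shifts of 2.73 and 2.96. Downward, NFG1 was at least 22.9-fold lower with a log phase signal of 10.1. SLM6 and SMA1 had bounds of 3.89-fold and 1.95-fold, and UBC11 and VEL1 had ratios of 2.58-fold and 1.93-fold. In the meiosis and sporulation list 10 of 21 measured genes (47.6%) were at least 2-fold higher, against 23.9% of all measured genes. Among them was SPR28 with 20.5 in stationary phase and 3.99 in log phase.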

How the data were processed

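RNA of ccr4Δ pbp1Δ, ccr4Δ and wild-type cells in stationary and log phase was measured on 1 array each. The authors deposited spot intensity values from Feature Extraction 11.0.1.1 and a table of processed intensities, whose sorted values are the same on every array, as quantile normalization gives. The array annotation follows the sacCer2 build, so RefSeq (R64) served for names only, and 5720 of 6225 names matched. Without control spots and outlier flags, each array's processed signals were divided by their 75th percentile and put on a log2 scale, and spots of a probe and probes of a gene were averaged. A gene was measured where both spots of a probe were well above background. "At least" folds set the bright signal against a floor, the dimmest probe that array still detected above background. Where the dim probe was brighter than the floor, the ratio of both signals was ranked with the bounds, and it is not a bound. The p-values come from limma 3.58.1 in R 4.3.3 (lmFit, eBayes); other steps used Python 3.11.15. The fit was tried on simulated data with independent noise and the same shift in every strain. That checks the code, and cannot show how the fit performs on these arrays.

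The members and lists were chosen with earlier results of these data known. Named genes were the deleted genes, ACT1, PGK1, LRG1 and the cyclins, the 12 largest rises and falls, the 5 highest bounds each way, the 8 genes each way farthest from both other strains, and the extremes of each list. List members between the extremes were named for their role after their values were seen. RPP1, a subunit of RNase P caught by a name pattern, was taken out of the ribosomal protein list after its value was seen. Alternatives were no scaling, median and quantile scaling, normexp with an offset of 50 on the median signal, the authors' values, the brightest probe, other fold limits, no filter, each spot alone, a trended prior and leaving out each strain. Scaling on spike-in probes, and no scaling in the fit, were added after seeing the data. Promoter motifs were not searched here. Signal over background and the number of arrays limit the precision. Between 92.7% and 98.4% of probes were well above background on the 6 arrays, and no spot was saturated.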

Additional observations from a re-analysis of the deposited data

Results flagged for a closer look

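Among the named genes and list members, these drew attention because the shift passed 2-fold one way in ccr4Δ pbp1Δ and the opposite way in another strain. With 1 array for each strain and phase the differences were not tested, and the wild-type shift mixes slide and phase. Given as the ccr4Δ pbp1Δ shift minus the wild-type shift, the difference was -4.50 for ARO9, -4.10 for CWP1, -3.33 for HXT4, -3.07 for ATO3, -2.81 for TPO2, -2.78 for BAG7 and -2.22 for GLN1. Over all genes measured on 6 arrays, 8 were past 2-fold higher in ccr4Δ pbp1Δ and lower in wild-type, and 15 were the reverse. SIS1 was the one list member outside the mating-type lists with a positive difference, 2.34. MET10 was the one list member opposed to ccr4Δ, of 2 such genes over all, with a difference of -2.08 from a shift of -1.05 in ccr4Δ pbp1Δ and of 1.03 in ccr4Δ.

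The mating-type genes were also among them. Differences from wild-type were -5.34 for MFA1, -3.64 for ASG7, 6.44 for MF(ALPHA)1 and 5.04 for STE3, and the median of the 3 measured α-specific genes was 1.13 in ccr4Δ pbp1Δ and -3.45 in wild-type, a difference of 4.58. The wild-type strain is MATα and the ccr4Δ pbp1Δ arrays carried a-specific transcripts, so strain background and response to the growth phase cannot be told apart for these genes. The signals of α-specific genes in ccr4Δ pbp1Δ were at most 10.1.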

How the results depend on the processing

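The counts moved with the fold limit and with the scaling. Against 1394 genes at least 2-fold higher and 1168 lower, no scaling gave 896 and 1637, and spike-in scaling, added after seeing the data, gave 693 and 1997. The higher share of the genes past the limit was 54.4%, 35.4% and 25.8% in that order, and the median of all measured genes 0.15, -0.24 and -0.49. These scalings add a constant to every gene, so shifts relative to that median are unchanged. The other scalings and the authors' values gave 1233 to 1335 genes higher. A 1.5-fold limit gave 2095 genes higher, and a 4-fold limit 463 higher and 491 lower.

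Of the 1470 genes called higher and 1293 called lower over 3 strains, spike-in scaling left 583 and raised the lower calls to 2554, and no scaling gave 885 higher. Leaving out the arrays of 1 strain gave 752 to 1735 genes higher and 696 to 1508 lower. The lowest counts, 752 and 696, were without the ccr4Δ pbp1Δ arrays, with 1 residual degree of freedom.

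No shift or list median past 2-fold changed sign under the scalings and value choices run. Below 2-fold, 14 of 644 values changed sign, those of ACT1, NDJ1 and the medians of the histone, proteasome, PUF, iron regulon and hexose transporter lists. The PGK1 shift became 0 with quantile normalization. Sizes were less stable, as 342 of the 644 values stayed within the combined spot SD of both arrays. With quantile normalization 40 of 92 did, and with the authors' values 42 of 92. With no scaling and with spike-in scaling, which move every gene by a constant, 0 of 92 did. Each strain and phase had 1 array, so there were no replicate numbers to pair. The fit was paired by strain only, as its strain term sets both phases of a strain against each other. Promoter motifs were not searched.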
